A study of Mus musculus with 6 samples.

Results

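The cytosolic ribosomal protein genes were taken as all genes whose symbol names a protein of the large (*Rpl*, *Rplp*) or small (*Rps*, *Rpsa*) subunit, and 83 of the 17092 genes in the count table met this rule. They comprised 77 core genes, 46 of the large and 31 of the small subunit, 5 paralogs of core genes (*Rpl3l*, *Rpl7l1*, *Rpl22l1*, *Rpl39l* and *Rps27l*) and 1 further gene, *Rpl32l*. RNA-seq was performed on mouse embryonic fibroblasts (MEFs) from WT mice and from *Aff3ir-ORF2*-/- mice, which lack *Aff3ir-ORF2* in every tissue, with 3 libraries of each genotype. No treatment was given in the sample labels. Nothing stated that the libraries came from separate cultures or embryos, so the p-values measure only the spread between these libraries, which may be technical. The study compared the genotypes as part of its work on atherosclerosis in mice. The ribosomal protein genes are described here within that comparison.

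Total counts were 17435133 to 17726034 in WT and 18209421 to 18252330 in *Aff3ir-ORF2*-/- libraries. *Aff3ir* was not analysed here, so the genotype labels were not checked against it. All 15 fibroblast markers examined (such as *Col1a1*, *Pdgfrb* and *Thy1*) had more than 3 counts in every library, and their summed level was 34364 to 34401 CPM (counts scaled to a common library size) in WT and 29157 to 36573 CPM in *Aff3ir-ORF2*-/-. Single fibroblast markers moved both ways. By the test given below, 5 of the 15 were higher and 4 lower, close to the 29.4% and 27.6% of all tested genes. Of the macrophage markers, 20 of 20 were higher in *Aff3ir-ORF2*-/-, compared with 29.4% of all tested genes. The summed level of the 20 macrophage markers was 22.3 to 26.2 CPM in WT and 1462 to 2495 CPM in *Aff3ir-ORF2*-/-. The defining markers *C1qa* and *C1qb* were at 0 in all 3 WT libraries. In bulk RNA, fewer cells of a type and less RNA per cell cannot be told apart, and the part that cells with macrophage markers play in the ribosomal results below was not tested. The biological coefficient of variation, the spread between libraries of one genotype beyond counting error, was 0.0185 in WT and 0.0996 in *Aff3ir-ORF2*-/-.

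Each ribosome is built from a small subunit, which reads the mRNA, and a large subunit, which joins amino acids, and most core proteins are present in a fixed ratio to the ribosomal RNA. The core genes are expressed in nearly all cells and are often regulated as a group, at transcription and through a run of pyrimidines that begins many of their mRNAs (the TOP motif) and links their translation to nutrient and growth signals. Many have processed pseudogenes or close copies elsewhere in the genome. How the deposited counts divided reads among such copies was not given in the sources used here, and levels of single members are uncertain to that extent.

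The start of each transcript is where the TOP motif lies, and the starts of members that the results below turn on are shown from 8 bases before the annotated start to 20 bases from it, as given by RefSeq on GRCm38.p6. Capitals mark a pyrimidine tract, searched on the strand that reads as the mRNA. It is a C followed by at least 4 bases of C or T, with its first base within 5 bases of the start. Among core genes that were lower in *Aff3ir-ORF2*-/-, *Rpl18* (chr7:45718063-45718090, plus strand), *Rps27* (chr3:90213629-90213656, minus strand) and *Rpl34* (chr3:130730318-130730345, minus strand, the downstream of its 2 listed starts) carried a tract, as did the ribosome-bound *Rack1* (chr11:48800352-48800379, plus strand).
Rpl18: cgcaggccgCTCTTTCCCCgcccactcc
Rps27: ctttcgCTCCTTTCCggcggtgacgacc
Rpl34: tttCCTCTTCCggggacggtgctcagag
Rack1: cgctCTTTCTTTTTCTCCacagggtcgt
*Rps6* (chr4:86857348-86857375, minus strand) and *Rps26* (chr10:128626487-128626514, minus strand), which did not pass the test, also carried one.
Rps6: agtcgggCCTCTTTTTCgtgacgcctcc
Rps26: aagccgccggatCCTCTTTCgagtcttg
No such tract was found at the listed starts of *Rpsa* (chr9:120127758-120127785, plus strand) and *Rplp0* (chr5:115559459-115559486, plus strand), which were lower, or of *Rpl37a* (chr1:72711252-72711279, plus strand), which did not pass the test.
Rpsa: atttaaggacgtcatttccggccgcccg
Rplp0: ggtttcgaggaccgcctggttctcctat
Rpl37a: cgccggtctaaaaccgcgcatgcgcatt

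Most core ribosomal protein genes were lower in *Aff3ir-ORF2*-/- MEFs, each by less than 1.5-fold. Of the 77 core genes, all of which had enough counts to be tested, 51 fell, 0 rose and 26 did not pass edgeR's quasi-likelihood test at a Benjamini-Hochberg adjusted p under 0.05. Among all 13075 genes tested, 27.6% fell and 29.4% rose by the same rule. The median standard error (SE) of the log2 fold change was 0.0452 in the core and 0.0816 over all tested genes. A smaller change could therefore pass in a typical core gene. The median core log2 fold change, *Aff3ir-ORF2*-/- over WT, was -0.14, a level 9.22% lower, and the range was -0.25 to 0.07, whereas the median over all tested genes was 0.01. A fold change of at least 1.5 was reached by 0 core genes, against 7.32% of all tested genes that fell and 14.3% that rose at that size. The log2 fold change was below 0 in 73 core genes and above 0 in 4, and 49.4% of all tested genes were below 0. The count of 51 depended on the libraries and settings used. It was 29 without WT replicate 1 and 27 without WT replicate 2, and 32 when the libraries were scaled by their upper quartile. With the replicate number as a block and values corrected for GC and length it was 30. Over all tested genes, 3606 fell in the main fit and 2919 to 3972 with 1 library left out. Whether the core depended more on single libraries than other genes was not tested. At an unadjusted p under 0.05, 57 core genes were lower and 0 higher, and DESeq2 and limma called 48 and 53 lower, each with 0 higher. The number that rose was 2 after GC and length correction, 1 with the block added, and 1 without *Aff3ir-ORF2*-/- replicate 2.

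**Figure D1:**
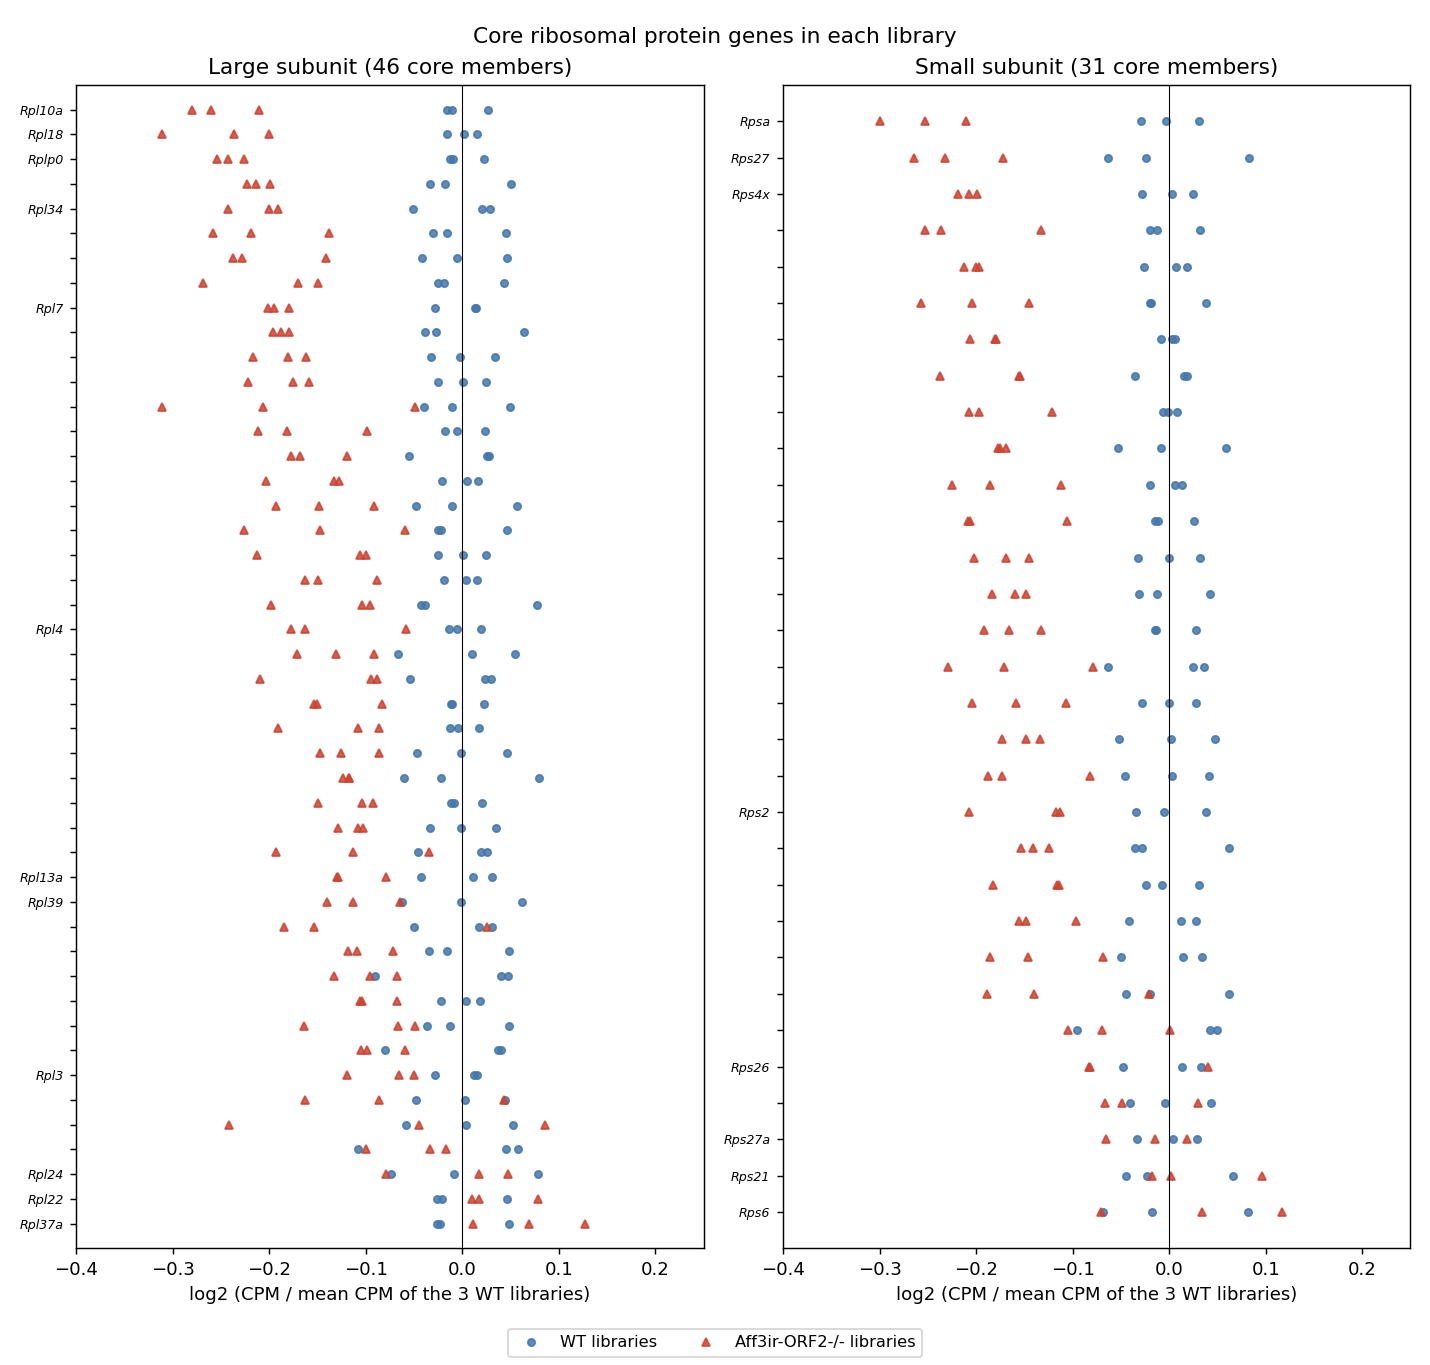
Level of each core gene in each library as log2 of its CPM over the mean CPM of the 3 WT libraries (horizontal axis), large subunit on the left and small subunit on the right, ordered by fold change with labels for genes named in the text, WT as circles and *Aff3ir-ORF2*-/- as triangles. The triangles lie to the left of every circle in 60 of 77 genes and overlap the circles in 17, among them *Rpl22*, *Rpl37a* and *Rps6* at the bottom.

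The libraries of the 2 genotypes did not overlap, with every *Aff3ir-ORF2*-/- library below every WT library, in 60 core genes, compared with 32.7% of all tested genes. The opposite separation was seen in 0 core genes and in 33.3% of all tested genes. Core genes also moved together between libraries of one genotype. In WT, 20, 35 and 66 of the 77 core genes were below their WT mean in replicates 1, 2 and 3, and in *Aff3ir-ORF2*-/- the counts were 73, 74 and 65. The members are therefore not independent measurements of the genotype. The median core level relative to the WT mean was 0.03, 0.00 and -0.03 on the log2 scale in the WT libraries and -0.15, -0.18 and -0.11 in the *Aff3ir-ORF2*-/- libraries.

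Summed over the 77 core genes, the share of all counts was 3.94%, 3.89% and 3.81% in the WT libraries and 3.54%, 3.54% and 3.63% in the *Aff3ir-ORF2*-/- libraries. All 3 *Aff3ir-ORF2*-/- libraries were below all 3 WT libraries. The mean was 3.88% ± 0.0651 (SD, n = 3) in WT and 3.57% ± 0.0538 (SD, n = 3) in *Aff3ir-ORF2*-/-, which is 7.91% lower. The large subunit took 2.30% ± 0.0396 of counts in WT and 2.13% ± 0.0290 in *Aff3ir-ORF2*-/- (SD, n = 3), and the small subunit 1.57% ± 0.0261 and 1.44% ± 0.0250. These shares describe the libraries and were not tested.

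**Figure D2:**
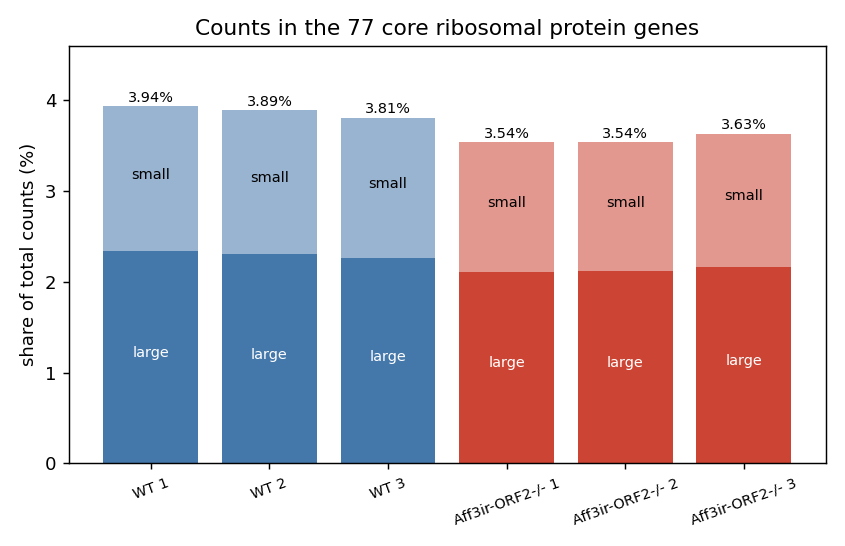
Share of total counts (percent, vertical axis from 0) taken by the 77 core ribosomal protein genes in each of the 6 libraries, split into large subunit (dark) and small subunit (light). The WT bars reach 3.81% to 3.94% and the *Aff3ir-ORF2*-/- bars 3.54% to 3.63%.

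In the large subunit, 27 of 46 core genes fell and 0 rose (27.6% and 29.4% of all tested genes), with a median log2 fold change of -0.13 (8.64% lower). The count was 14, 13 and 15 without WT replicates 1, 2 and 3, 15 with upper quartile scaling, and 16 with total counts or the replicate block, with or without GC and length correction. Counts over all tested genes also moved when a library was left out, as given above. The lowest was *Rpl10a*, which encodes the protein of the L1 stalk that contacts the departing tRNA. *Rpl10a* measured 424, 412 and 414 CPM in WT and 348, 360 and 343 CPM in *Aff3ir-ORF2*-/-, a log2 fold change of -0.25 ± 0.0410 (SE, adjusted p = 0.000913, edgeR). *Rpl18* measured 463, 467 and 457 CPM in WT against 392, 372 and 402 CPM in *Aff3ir-ORF2*-/- (log2 fold change -0.25 ± 0.0441 SE, adjusted p = 0.0014, edgeR). For both genes the groups were separate, and the gap between them was wider than the spread within either. *Rplp0*, whose product anchors the acidic stalk that recruits translation factors, measured 1431, 1399 and 1396 CPM in WT and 1190, 1204 and 1181 CPM in *Aff3ir-ORF2*-/-. It was 15.4% lower (log2 fold change -0.24 ± 0.0417 SE, adjusted p = 0.00122, edgeR). *Rpl34* fell from 210, 208 and 198 CPM to 180, 174 and 179 CPM, by 0.21 on the log2 scale. *Rpl10a*, *Rpl18*, *Rplp0* and *Rpl34* passed the test under all 18 alternatives that gave them a value.

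Several large subunit genes did not pass. *Rpl3*, whose product reaches towards the peptidyl transferase centre, measured 1050, 1079 and 1082 CPM in WT and 1023, 1034 and 986 CPM in *Aff3ir-ORF2*-/- (log2 fold change -0.08, adjusted p = 0.155, edgeR). *Rpl13a* measured 1242, 1225 and 1180 CPM in WT and 1151, 1111 and 1112 CPM in *Aff3ir-ORF2*-/- (log2 fold change -0.11, adjusted p = 0.0567, edgeR). In both genes the groups did not overlap although the test was not passed. *Rpl13a* passed as lower in 5 of 18 alternatives, among them limma (adjusted p = 0.0380) and the fits without *Aff3ir-ORF2*-/- replicate 1 (0.0482) or 2 (0.0134), and *Rpl3* passed without *Aff3ir-ORF2*-/- replicate 2 (0.0180). *Rpl4*, which lines the tunnel through which the new protein leaves, fell by 0.13 on the log2 scale (adjusted p = 0.0415, edgeR), from 1166, 1147 and 1140 CPM to 1028, 1018 and 1105 CPM. Its call was lost in 10 of 18 alternatives, including without each of WT replicates 1, 2 and 3 (adjusted p = 0.125, 0.113 and 0.0965, edgeR) and without *Aff3ir-ORF2*-/- replicate 1 (0.0884). *Rpl37a* had the highest fold change of the core, at 227, 239 and 227 CPM in WT and 242, 233 and 252 CPM in *Aff3ir-ORF2*-/- (log2 fold change 0.07 ± 0.0464 SE, adjusted p = 0.229, edgeR). Its groups overlapped. It passed as higher without *Aff3ir-ORF2*-/- replicate 2 (log2 fold change 0.09, adjusted p = 0.0445, edgeR) and after the GC and length correction (0.16, adjusted p = 0.00947).

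In the small subunit, 24 of 31 core genes fell and 0 rose (27.6% and 29.4% of all tested genes), with a median log2 fold change of -0.16 (10.4% lower). The count was 15 and 14 without WT replicates 1 and 2, and 14 with the replicate block plus GC and length correction. As above, counts over all tested genes also moved when a library was left out. Whether the subunits differ from each other was not tested. *Rpsa*, which encodes a protein on the side where mRNA leaves the small subunit, had the lowest fold change of all core genes. It measured 1332, 1301 and 1277 CPM in WT and 1126, 1059 and 1093 CPM in *Aff3ir-ORF2*-/-, which is 16.1% lower (log2 fold change -0.25 ± 0.0455 SE, adjusted p = 0.00148, edgeR). The 3 *Aff3ir-ORF2*-/- libraries all lay below the lowest WT library. *Rps4x*, the X-linked gene for an RNA-binding protein of the subunit body, measured 793, 823 and 811 CPM in WT and 701, 704 and 695 CPM in *Aff3ir-ORF2*-/- (log2 fold change -0.21 ± 0.0406 SE, adjusted p = 0.00234, edgeR). *Rps2*, near the channel through which mRNA enters, had the most counts of the core at 2215, 2149 and 2107 CPM in WT and 1995, 1869 and 1988 CPM in *Aff3ir-ORF2*-/-. Its fold change was -0.15 ± 0.0488 on the log2 scale (SE, adjusted p = 0.0311, edgeR). The groups of *Rps2* were separate, but the call was lost without WT replicate 1, 2 or 3 (adjusted p = 0.117, 0.0964 and 0.0645, edgeR), under the replicate block (0.0769) and with upper quartile scaling (0.0580).

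The 7 small subunit genes that did not pass included *Rps6*, *Rps26* and *Rps27a*, and in each of the 7 the genotypes overlapped. *Rps6*, which encodes the substrate that S6 kinases phosphorylate downstream of mTOR, measured 29.3, 28.3 and 31.4 CPM in WT and 28.2, 32.1 and 30.4 CPM in *Aff3ir-ORF2*-/- (log2 fold change 0.03, adjusted p = 0.740, edgeR). *Rps6* was also the lowest core gene by counted level. Per kilobase of transcript it had 33.8 CPM in WT, compared with a core median of 586 and a highest value of 2161 for *Rps2*. Loss of *Rps6* reads to copies elsewhere in the genome was not tested, so its level and fold change are uncertain. *Rps27a*, which is made as a fusion with ubiquitin, measured 463, 472 and 451 CPM in WT and 457, 441 and 468 CPM in *Aff3ir-ORF2*-/- (log2 fold change -0.02). *Rps26*, which contacts the mRNA upstream of the start codon, measured 316, 320 and 303 CPM in WT and 296, 296 and 322 CPM in *Aff3ir-ORF2*-/- (-0.04).

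Across the 77 core genes the log2 fold change correlated weakly with level and with transcript properties. Pearson's r was -0.398 and Spearman's rho -0.316 against log2 WT CPM, and r was -0.278 (rho -0.216) against log2 WT CPM per kilobase. Against log2 transcript length r was -0.228 (rho -0.189) and against GC content -0.266 (rho -0.290). These values are across genes that share the same 6 libraries, and genes are not independent replicates. The median core transcript was 729 bases long, and the median over all tested genes with a length was 3048 bases.

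Of the 5 paralogs, 4 had enough counts to be tested, of which 1 rose, 1 fell and 2 did not pass, shares close to the 29.4% and 27.6% of all tested genes. *Rpl3l*, the striated muscle counterpart of *Rpl3*, had at most 1 count in any library. *Rpl39l* is best known from male germ cells and stands in for the exit tunnel protein of *Rpl39*. It was the only cytosolic ribosomal protein gene past 1.5-fold. Its reads numbered 240, 216 and 229 in the WT libraries (13.9, 12.3 and 13.1 CPM) but 161, 163 and 130 in those of *Aff3ir-ORF2*-/- (8.84, 8.75 and 7.08 CPM), which is 37.2% lower (log2 fold change -0.67 ± 0.110 SE, adjusted p = 0.0009, edgeR). Its groups were far apart relative to their spread, and it passed the test in all 18 alternatives. It was just short of 1.5-fold (log2 fold change -0.58) without *Aff3ir-ORF2*-/- replicate 3 and after GC and length correction. *Rpl39* itself measured 209, 192 and 201 CPM in WT and 182, 186 and 192 CPM in *Aff3ir-ORF2*-/- and did not pass (log2 fold change -0.11, adjusted p = 0.0818, edgeR), although it passed as lower without *Aff3ir-ORF2*-/- replicate 2 (adjusted p = 0.0494).

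*Rps27l*, a p53-inducible gene whose product closely resembles that of *Rps27*, measured 127, 126 and 118 CPM in WT and 139, 131 and 139 CPM in *Aff3ir-ORF2*-/-. It rose by 10.2% (log2 fold change 0.14 ± 0.0467 SE, adjusted p = 0.0305, edgeR), and all 3 *Aff3ir-ORF2*-/- libraries lay above all 3 WT libraries. The call was lost in 7 of 18 alternatives. These were the absence of a filter on low counts (adjusted p = 0.0635), DESeq2 (0.0652), the replicate block (0.0544) and the fits without WT replicate 2 (0.0751), WT replicate 3 (0.136), *Aff3ir-ORF2*-/- replicate 1 (0.0878) or replicate 3 (0.0763). *Rps27* moved the other way, from 138, 125 and 129 CPM in WT to 109, 111 and 116 CPM in *Aff3ir-ORF2*-/- (log2 fold change -0.22 ± 0.0513 SE, adjusted p = 0.00563, edgeR). Its call was lost with the replicate block plus GC and length correction (log2 fold change -0.13, adjusted p = 0.0767, edgeR). Reads that fit both genes could shift between them, and how they were counted was not given in the sources used here.

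The ratio of each paralog to its core partner was compared between the genotypes in 4 pairs by an exact two-sided permutation test, for which 0.1 is the smallest p with 3 libraries against 3. The log2 ratio of *Rps27l* to *Rps27* was -0.12, 0.01 and -0.12 in WT and 0.35, 0.24 and 0.26 in *Aff3ir-ORF2*-/-, a difference of 0.36 (exact p = 0.1, adjusted over the 4 pairs 0.133). For *Rpl39l* to *Rpl39* the difference was -0.57 and for *Rpl7l1* to *Rpl7* it was 0.25, with the same exact p. *Rpl7* itself fell from 676, 676 and 657 CPM to 583, 585 and 591 CPM (log2 fold change -0.19, adjusted p = 0.00335, edgeR). In the pairs of *Rps27l*, *Rpl39l* and *Rpl7l1* the groups were separate. For *Rpl22l1* to *Rpl22* the difference was -0.05 and the groups overlapped (exact p = 0.6).

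*Rpl22l1*, whose product can replace that of *Rpl22*, measured 96.9, 94.5 and 95.3 CPM in WT and 95.6, 102 and 87.1 CPM in *Aff3ir-ORF2*-/- (log2 fold change -0.01, adjusted p = 0.895, edgeR). *Rpl22* was at 195, 185 and 186 CPM in WT and 191, 199 and 190 CPM in *Aff3ir-ORF2*-/- (log2 fold change 0.04, adjusted p = 0.506, edgeR). Neither gene was separated by genotype, although *Rpl22* passed as higher after GC and length correction (0.13, adjusted p = 0.0439, edgeR). *Rpl7l1*, which takes part in ribosome assembly, measured 116, 114 and 116 CPM in WT and 124, 110 and 126 CPM in *Aff3ir-ORF2*-/- (log2 fold change 0.06, adjusted p = 0.407, edgeR), and without *Aff3ir-ORF2*-/- replicate 2 it passed as higher (0.11, adjusted p = 0.0174). *Rpl32l* was a low-count member with 103, 112 and 102 reads in the WT libraries against 65, 104 and 78 for *Aff3ir-ORF2*-/- (log2 fold change -0.44 ± 0.169 SE, adjusted p = 0.0515, edgeR). It passed in 4 alternatives, and without *Aff3ir-ORF2*-/- replicate 2 its fold change was -0.64 (adjusted p = 0.0035).

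**Figure D3:**
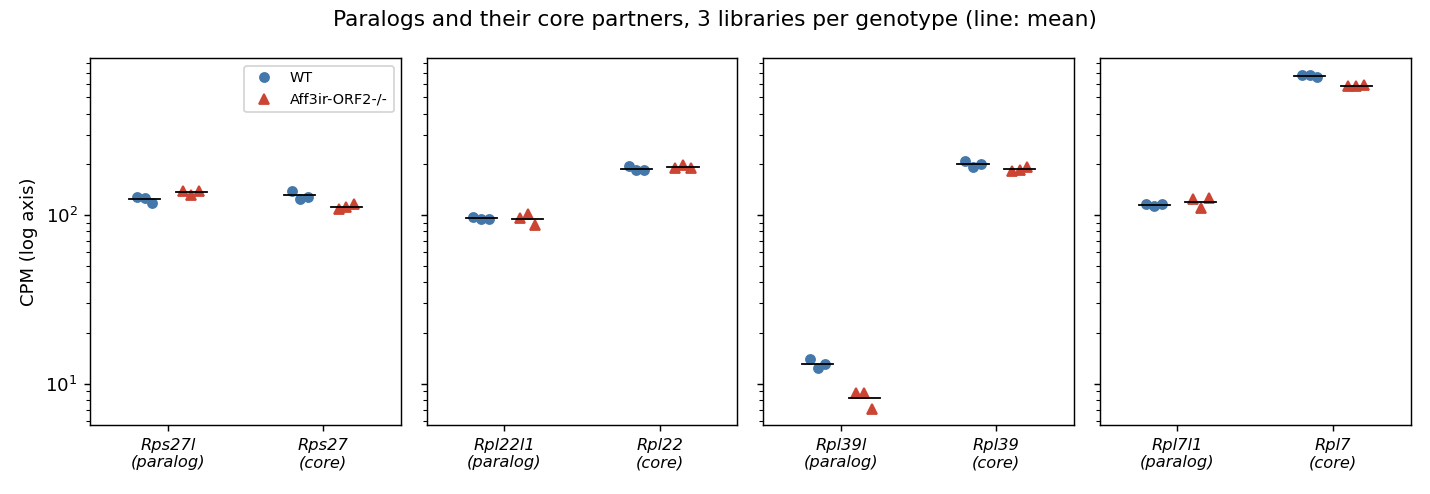
Level of 4 paralogs and their core partners in each library (CPM, log axis), with WT as circles, *Aff3ir-ORF2*-/- as triangles and lines at the mean of 3 libraries. *Rps27l* lies higher (131 to 139 CPM against 118 to 127) and *Rps27* lower (109 to 116 against 125 to 138) in *Aff3ir-ORF2*-/-, and *Rpl39l* falls from 12.3 to 13.9 CPM to 7.08 to 8.84.

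Some ribosomal genes fall outside the symbol rule. *Rack1*, a scaffold on the head of the small subunit, measured 934, 939 and 933 CPM in WT and 790, 785 and 781 CPM in *Aff3ir-ORF2*-/- (log2 fold change -0.25 ± 0.0396 SE, adjusted p = 0.000717, edgeR). Each group was tight and the difference was many times its spread. *Fau*, which is made as a fusion with a ubiquitin-like protein, had a log2 fold change of -0.07, and *Rpl36al*, a copy of *Rpl36a*, had -0.11. Neither passed edgeR's test (adjusted p = 0.208 and 0.212). *Rpl36al* passed as lower without *Aff3ir-ORF2*-/- replicate 3 (log2 fold change -0.18, adjusted p = 0.0264, edgeR).

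The windows around transcription starts, 300 bases long from 250 bases before the start to 50 after it, were available in RefSeq for 57 of the 77 core genes, with 67 windows in all. A pyrimidine tract as defined above began at the start in 43.3% of core windows and in 18.3% of all 32851 windows. The motif CCGGAAG, searched on both strands, was present in 37.3% of core windows and in 8.86% of all windows. AAGATGG was present in 16.4% of core and 6.34% of all windows, and CACGTG in 11.9% of core and 7.15% of all windows. In the windows of assembly factors, translation factors and mitochondrial ribosomal proteins, CCGGAAG was present in 29.3%, 29.7% and 34.7%, AAGATGG in 6.90%, 18.9% and 17.3%, CACGTG in 22.4%, 29.7% and 9.33%, and the tract in 17.2%, 18.9% and 22.7%. A tract that reads CTTCC can overlap the reverse strand of CCGGAAG. The search covered only the listed starts, and the starts used in these cells were not measured. A gene without a tract here may therefore still carry the TOP motif. Core genes with and without a tract had overlapping ranges of fold change, and the difference between them was not tested. Of 27 genes with a tract 18 fell, with a median log2 fold change of -0.14 (-0.25 to 0.03). Of 30 without one 21 fell, with a median of -0.15 (-0.25 to 0.07). Among all tested genes 27.6% fell. The 20 core genes without a window had 12 that fell and a median of -0.14.

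Most genes that assemble ribosomes were lower in *Aff3ir-ORF2*-/-. All 60 assembly factors listed were tested, of which 50 fell and 1 rose (27.6% and 29.4% of all tested genes), with a median log2 fold change of -0.42, a level 25.3% lower. Past 1.5-fold there were 13 that fell (7.32% of all tested genes), which became 4 without *Aff3ir-ORF2*-/- replicate 2 and 7 with upper quartile scaling. Whether the assembly factors and the core differ was not tested. By role, 7 of 10 genes of RNA polymerase I and its factors fell (median -0.22), 8 of 9 core proteins of the small nucleolar particles that modify ribosomal RNA (median -0.59), 13 of 15 small subunit factors (median -0.45) and 3 of 3 other nucleolar proteins (median -0.41). In the large subunit group 19 of 23 fell and 1 rose (median -0.35).

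*Riok2*, a kinase of late small subunit maturation, measured 65.8, 65.6 and 65.1 CPM in WT and 35.4, 35.0 and 34.7 CPM in *Aff3ir-ORF2*-/- (log2 fold change -0.90 ± 0.0453 SE, adjusted p = 2.63e-06, edgeR). Its relative *Riok1* fell by 0.66 on the log2 scale, from 46.2, 43.9 and 46.0 CPM to 29.2, 29.3 and 27.5 CPM. In both kinases the genotypes were far apart. *Gtpbp4*, a GTPase of large subunit assembly, fell by 0.53, and *Mdn1*, the ATPase that strips assembly factors from the large subunit, by 0.50. *Npm1*, an abundant nucleolar chaperone, measured 1228, 1230 and 1268 CPM in WT and 975, 849 and 939 CPM in *Aff3ir-ORF2*-/- (log2 fold change -0.43). *Ncl*, another abundant nucleolar protein, fell by 0.34 on the same scale. The exception was *Sbds*, which helps to release a blocking factor from the large subunit and rose from 60.5, 59.3 and 61.5 CPM to 79.1, 70.5 and 73.5 CPM (log2 fold change 0.30 ± 0.0538 SE, adjusted p = 0.00152, edgeR). *Sbds* was singled out after its values were seen.

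**Figure D4:**
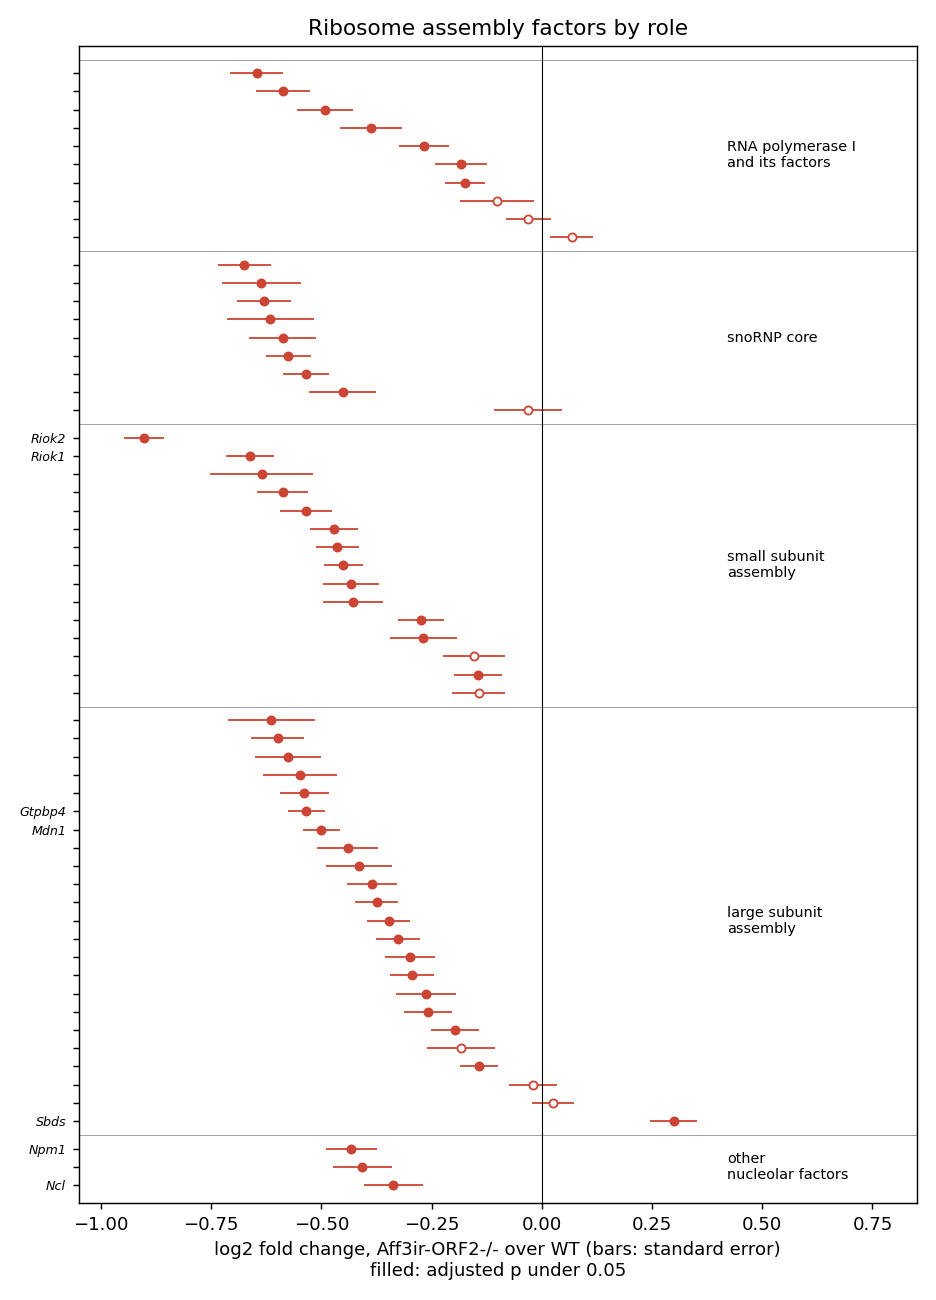
Log2 fold change, *Aff3ir-ORF2*-/- over WT (horizontal axis), of each ribosome assembly factor grouped by role with labels for genes named in the text, bars for the standard error and filled points for an adjusted p under 0.05. The 9 core proteins of small nucleolar particles have the lowest median (-0.59), and *Sbds* (0.30), in the large subunit group, is the only factor that passed as higher.

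Translation factors, which act with the finished ribosome, fell in 21 of 38 genes and rose in 0 by edgeR (27.6% and 29.4% of all tested genes), with a median log2 fold change of -0.15. At an unadjusted p under 0.05 there was 1 higher, by DESeq2 and limma 0, and 2 with upper quartile or total count scaling. The initiation factors named by the smallest adjusted p were *Eif4e*, the cap-binding protein (-0.47), *Eif5*, which triggers GTP hydrolysis at the start codon (-0.46), *Eif1*, which guards start codon choice (-0.38), and *Eif4a1*, an RNA helicase (-0.36). *Eif4e* measured 180, 176 and 175 CPM in WT and 128, 123 and 132 CPM in *Aff3ir-ORF2*-/-, without overlap. The abundant elongation factors *Eef1a1*, which brings tRNAs, and *Eef2*, which moves the ribosome along, each had -0.08 and did not pass (adjusted p = 0.186 and 0.147, edgeR). Without *Aff3ir-ORF2*-/- replicate 2 both passed as lower (adjusted p = 0.00335 and 0.0135, edgeR), and *Eef2* also did after GC and length correction (log2 fold change -0.14, adjusted p = 0.0209).

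**Figure D5:**
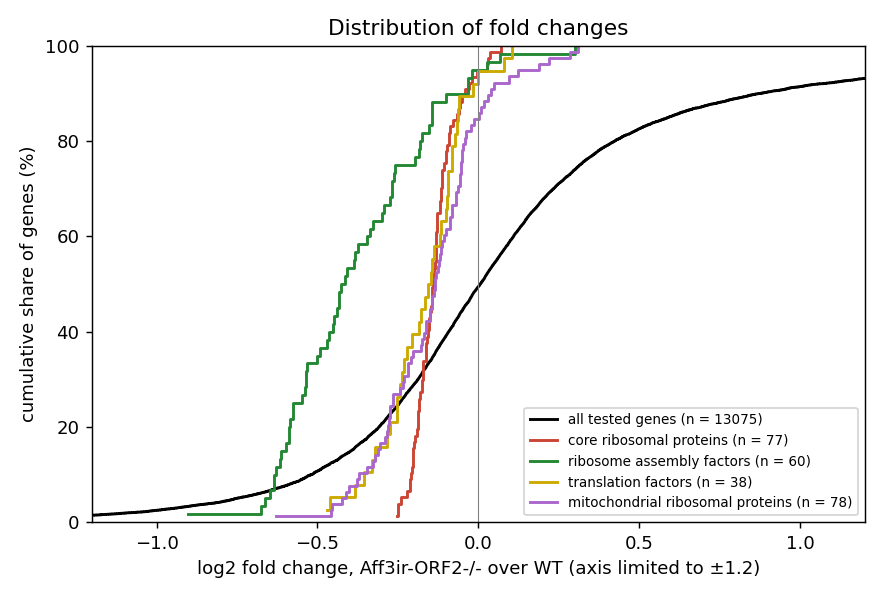
Cumulative share of genes (percent, vertical axis) by log2 fold change, *Aff3ir-ORF2*-/- over WT (horizontal axis, limited to ±1.2), for all 13075 tested genes, the 77 core ribosomal proteins, 60 assembly factors, 38 translation factors and 78 mitochondrial ribosomal proteins. The core curve is steep and lies between -0.25 and 0.07. The assembly factor curve has a lower median (-0.42) but ends to the right of the core curve, at 0.30.

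Of 25 regulators of ribosomal protein transcription and translation, 11 fell and 6 rose, with a median log2 fold change of -0.06, and 27.6% and 29.4% of all tested genes fell and rose. *Myc*, a transcription factor that drives ribosome production, measured 151, 141 and 142 CPM in WT and 63.3, 52.5 and 58.1 CPM in *Aff3ir-ORF2*-/- (log2 fold change -1.32 ± 0.0682 SE, adjusted p = 2.88e-06, edgeR). The highest *Aff3ir-ORF2*-/- library was below the lowest WT library by a wide margin. *Gabpa*, an ETS factor, and *Sp1*, which binds GC boxes, each fell by 0.42 on the log2 scale. *Rptor*, the subunit that recruits mTORC1 substrates, had -0.32 and *Larp1*, which binds TOP mRNAs, had -0.29, both past the test. Those that rose included *Larp1b*, a relative of *Larp1* (0.37), *Yy1*, a zinc finger transcription factor (0.35), and *Tsc1*, part of the complex that restrains mTORC1 (0.27), named after their values were seen. *Ybx1*, an abundant RNA-binding protein, had 0.01 (adjusted p = 0.873, edgeR). No link between these genes and the ribosomal protein levels was tested.

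The mitochondrial ribosome is made from a separate set of nuclear genes. Of 78 tested, 27 fell and 2 rose (27.6% and 29.4% of all tested genes), with a median log2 fold change of -0.13, and 66 were below 0. The count that rose was 1 without WT replicate 1 or 3 or *Aff3ir-ORF2*-/- replicate 1, 4 without *Aff3ir-ORF2*-/- replicate 2, with total counts or after GC and length correction, and 5 with upper quartile scaling. One gene was past 1.5-fold, *Mrps35* of the mitochondrial small subunit, at 14.6, 15.3 and 16.3 CPM in WT and 9.77, 9.71 and 10.4 CPM in *Aff3ir-ORF2*-/- (log2 fold change -0.63 ± 0.0823 SE, adjusted p = 0.000262, edgeR). By adjusted p, *Mrpl40*, *Mrps5* and *Mrps18b* came next, with log2 fold changes of -0.46, -0.42 and -0.41. The genes that rose were *Mrps21* (0.29) and *Mrpl49* (0.31), named after their values were seen. The share that fell was 34.6%, and 66.2% in the cytosolic core, while the medians of both sets were close (-0.13 and -0.14) and the median SE was 0.0737 against 0.0452. The difference between the 2 sets was not tested.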

How the data were processed

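RNA was sequenced by DNBSEQ, and its extraction is given as Trizol in the labels and as a MagicPure kit in the study's methods. Per the study's methods the reads were filtered with SOAPnuke. The submitters' processing notes list the build mm8, and the aligner, counting tool and annotation were not given in the sources used here. The authors deposited estimated counts per gene, not normalized, which were rounded to whole numbers (10.6% to 11.3% of values per library were not whole), and 0 columns of other samples were present. Genes were filtered by filterByExpr (minimum count 10, minimum total 15) in edgeR 4.0.16, scaled by TMM and tested by the quasi-likelihood test on genotype alone, with Benjamini-Hochberg adjustment over 13075 genes and a threshold of 0.05. CPM used the TMM library sizes. The fit was tested on simulated data. R 4.3.3, limma 3.58.1, DESeq2 1.42.0, Python 3.11.15, pandas 2.3.3 and matplotlib 3.10.9 were used.

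Genes were named by rule: all paralogs and their partners, the 6 core genes with the most counts, the 8 highest and 8 lowest core fold changes, core genes past 1.5-fold, ribosomal genes outside the symbol rule, and up to 4 genes of each other list by adjusted p and 2 by counts. Some genes that the rule names are not reported here. Members and lists were chosen with earlier results of these data known. Transcript lengths and GC content came from GENCODE M21 and start windows from RefSeq (GRCm38.p6). Alternatives changed the scaling, filter, tool, replicate block, GC content and length correction, and left out each library. Intervals from replicates reflect 3 libraries per genotype, and a floor of 3 counts, which covers counting error only, was used for marker detection.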

Additional observations from a re-analysis of the deposited data

How the results depend on the processing

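The number of core genes that fell (51) was 32 with upper quartile scaling and 30 with the replicate block plus GC content and length correction, ranged from 27 to 60 when 1 library was left out, and was 34 to 55 in the other alternatives, among them 48 with DESeq2 and 53 with limma. Over all tested genes, 2919 to 3972 fell with 1 library left out, against 3606 in the main fit. The core median was -0.10 with upper quartile scaling and -0.16 to -0.13 with 1 library left out. Core genes that rose (0) numbered 2 (*Rpl22*, *Rpl37a*) after GC content and length correction, 1 with the block added, and 0 to 1 with a library left out. At an unadjusted p under 0.05, 57 core genes were lower. The difference in the core share of counts (-0.307 percentage points) was -0.380 with TMM library sizes and -0.342 to -0.277 with a library left out. Library sizes without the macrophage marker list, chosen after seeing the data, gave 51. These markers held 0.146% to 0.251% of counts in the *Aff3ir-ORF2*-/- libraries, so leaving them out could hardly change the scaling. Other RNA of cells with these markers stayed in, so this setting cannot show what part those cells play.

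Fold changes near 0 changed sign. With upper quartile scaling *Rpl22l1* was 0.0287, *Rps27a* 0.0171 and *Rpl24* 0.0333, and with total counts they were 0.0191, 0.00812 and 0.0245. *Ybx1* was -0.00432 without a filter, and with 10 counts required in every library *Rpl22l1* was 0.00217 and *Rpl24* 0.00814. After GC content and length correction *Rps26* was 0.0361, *Rps27a* 0.0603 and *Rpl24* 0.0483, and with the block added 0.0357, 0.0604 and 0.0492. With 1 library left out *Rpl22l1* ranged from -0.0686 to 0.0454, *Rpl24* from -0.0420 to 0.0384, *Rps6* from -0.0212 to 0.0720, *Rps21* from -0.0104 to 0.0591 and *Ybx1* from -0.0193 to 0.0507. The cause was not tested.

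Libraries of the 2 genotypes with the same replicate number correlated at 0.0386, 0.0424 and 0.0145, and each correlated best with its own number. Pairs with different numbers ranged from -0.0369 to 0.00462. Whether libraries with the same number share a batch was not tested. The replicate block gave 34 core genes that fell.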
